A study of Mus musculus with 22 samples.

Results

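The comparison sets C1+14, a derivative of the mouse transcription factor DUX tagged with the red fluorescent protein mCherry, against mCherry alone in embryonic stem cells. It rests on 4 of the 22 samples of the series, replicates 1 and 2 of C1+14 and replicates 1 and 2 of mCherry, chosen by the group names in the labels. All samples were Dux-/- mouse embryonic stem cells kept in 2iLIF, a medium that holds them in the naive state, and all were given 0.25 ug/mL doxycycline for 12 hours after 24 hours of recovery from plating, the mCherry controls included. The transgenes therefore differed between the groups while the deletion and the drug were shared. The genotype labels read mCherry-C1+14 Dux and mCherry. C1 is background knowledge of the study's naming, 1 of the repeats in the C-terminal region of mouse DUX, and 14 its terminal tail. The labels do not spell these names out, give no promoter, and do not say whether a line is 1 clone or whether replicates came from separate cultures. The p-values therefore measure a spread between libraries only. In the main fit that spread was estimated over all 14 libraries of the table that holds C1+14 and mCherry, and not from these 4 alone.

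DUX is a double-homeodomain factor of the mouse 2-cell embryo. Its homeodomains bind DNA near genes and retroviral repeats that are transcribed at zygotic genome activation, and its C-terminal region carries the activating function. In embryonic stem cells it turns on Zscan4, Usp17-like, Tdpoz and other multi-copy families of the 2-cell stage. Many of these genes have near-identical copies, and the genome holds many processed pseudogenes, reverse-transcribed copies of expressed messenger RNAs, so genes were split by annotation and by shared sequence before anything was counted. A gene was called multi-copy when at least 10% of its 50-base words also lay in transcripts of another gene, and low-copy otherwise.

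The C1+14 libraries held 24051548 and 28635782 reads on genes, and the mCherry libraries 31203170 and 23949774. Values below are normalised read counts, in which 1 read is worth 0.731 and 0.620 in C1+14 and 0.660 and 0.858 in mCherry. The cells expressed the markers of embryonic stem cells in both groups. Pou5f1, the core pluripotency factor Oct4, was at 9781 and 11357 in C1+14 and at 12414 and 12697 in mCherry, and Utf1, another stem cell marker, at 1012 and 913 against 928 and 926. The Dux copies Duxf3 and Gm4981 had 0 reads in all 20 libraries with a column, full-length DUX included, so they check no label. Replicates of C1+14 stood further apart than those of mCherry. Among low-copy protein-coding genes with a group mean of at least 50, 307 of 10095 (3.04%) differed at least 2-fold between the C1+14 libraries and 1 of 9858 (0.0101%) between the mCherry libraries.

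A difference between libraries that the labels do not mention runs along this comparison. The share of reads on 1593 high-copy genes was 1.93% and 2.15% in C1+14 and 0.310% and 0.340% in mCherry. High-copy genes are those with at least 50% of their 50-base words in transcripts of 20 or more genes. The 20 libraries fell into 14 with shares of 1.66% to 2.58%, here type A, and 6 with shares of 0.295% to 0.419%, here type B. Both C1+14 libraries were type A and both mCherry libraries type B, so construct and type cannot be told apart in them. The constructs deltC12345+14 and deltC12345delt14, in a table the authors scaled separately, had 1 library of each type. The log2 difference of type A minus type B within each of them is given beside the results it touches, and a gene is said to move with the type where that difference was at least 1 in size and of the same sign in both. A second fit, edgeR's quasi-likelihood test on the reads of both tables with the type as a term, is given as the type-adjusted fit. Every other group had both libraries of 1 type. The type term therefore rests on the libraries of deltC12345+14 and deltC12345delt14 alone, and is not independent of the differences within them.

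C1+14 differed from mCherry at 3953 of 21584 genes tested, 2668 higher and 1285 lower (18.3% called; 12.4% higher and 5.95% lower). Calls rest on limma with log2(value + 1), at an adjusted p (Benjamini-Hochberg) under 0.05 and a difference of at least 2-fold, and all log2 differences below are C1+14 minus mCherry on that scale. Among low-copy protein-coding genes 1359 were higher and 767 lower of 13787 (15.4% called, 9.86% higher and 5.56% lower). Most gene lists below are set beside the rates over all genes, which include processed pseudogenes. For lists made mostly of low-copy protein-coding genes, the 9.86% and 5.56% are the closer match. Of the higher ones 605 differed over 4-fold, 44 over 16-fold, and 241 had at most 3 reads in each mCherry library. Of the lower ones 180 differed over 4-fold, and 17 had at most 3 reads in each C1+14 library. The direction was more one-sided among processed pseudogenes, with 933 higher and 67 lower of 2704 (37.0% called). Among multi-copy genes it was 246 and 206 of 2347 (19.3% called, 10.5% higher and 8.78% lower). Quantile normalization turned the multi-copy split to 180 higher and 226 lower, and a pseudocount of 8 to 156 and 205. Leaving out genes that move with the type gave 153 and 194, and leaving out C1+14 replicate 1 also turned it. It held with edgeR (251 and 172) and TMM scaling (278 and 181), among others. Only 27 of the 1359 low-copy protein-coding genes that were higher, and 11 of the 767 lower, moved with the library type in the direction of the call, against 583 (62.5%) of the 933 processed pseudogenes and 90 (36.6%) of the 246 multi-copy genes. Low-copy genes cannot be among the high-copy genes whose share defined the types. This contrast between classes was therefore partly fixed by that definition. In the type-adjusted fit 1024 low-copy protein-coding genes were higher and 408 lower, 145 processed pseudogenes were higher and 22 lower, and 66 multi-copy genes were higher and 63 lower. These counts include genes that the main fit did not call. Of its low-copy protein-coding calls, 828 of the 1359 higher and 340 of the 767 lower were called the same way there. Of the 933 higher processed pseudogenes 129 were, and of the 246 higher multi-copy genes 49. Without mCherry replicate 1 the calls came to 2588 over all genes, 1396 among low-copy protein-coding and 295 among multi-copy genes.

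The low-copy protein-coding genes furthest above mCherry were nearly silent in the control. Alpk1, an alpha-kinase of innate immunity (GRCm38 chr3:127670310-127780527), stood at 126 and 172 in C1+14 and at 0.660 and 0.858, a single read each, in mCherry. Its log2 difference was 6.40 (SE 0.44, adjusted p = 4.85e-07), and the ratio of the summed reads was 202-fold (95% exact counting interval 55.6 to 1673). Pdlim3, an actinin-binding LIM protein of muscle (chr8:45885461-45919548), was at 80.4 and 78.8 against 0 and 1.72. Aadac, a lipid-hydrolysing deacetylase, was at 208 and 99.8 against 1.32 and 4.29. In each of these 3 genes both C1+14 libraries lay far above both mCherry libraries.

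Galnt3, which starts mucin-type O-glycosylation (chr2:66082766-66124994), was at 63.6 and 44.6 in C1+14 against 0.660 and 0.858 in mCherry. Srgn, the proteoglycan serglycin, was at 238 and 258 against 7.92 and 11.2 (log2 4.58, SE 0.39, adjusted p = 3.01e-06). Insl6, a relaxin-like hormone of the testis, was at 91.4 and 111 against 1.98 and 5.15. H2-M3, a non-classical MHC class I chain, was at 48.2 and 67.6 against 4.62 and 0, and St8sia3, a sialyltransferase, at 151 and 110.4 against 2.64 and 5.15. These 5 kept their calls without each library in turn and in the type-adjusted fit, as did Alpk1, Pdlim3 and Aadac. With only the C1+14 and mCherry libraries fitted by limma, H2-M3 missed the threshold (adjusted p = 0.0716).

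For 4 genes of the same rank the C1+14 replicates disagreed. Asb4, a substrate adaptor of ubiquitin ligases, was at 11.7 in replicate 1 and 2946 in replicate 2, against 1.98 and 3.43 in mCherry. Lrrc7, a scaffold of synapses, was at 3.65 and 255 against 0 and 0, and Nedd9, a focal adhesion scaffold, at 87.0 and 1967 against 11.9 and 17.2. Abca8b, a lipid transporter, ran the other way, at 876 in replicate 1 and 34.1 in replicate 2, against 2.64 and 1.72. With only the C1+14 and mCherry libraries fitted by limma, all 4 lost their calls. The adjusted p was 0.285 for Asb4, 0.217 for Lrrc7, 0.166 for Nedd9 and 0.129 for Abca8b. Without C1+14 replicate 2 the log2 difference of Asb4 was 1.80 (adjusted p = 0.261) and that of Lrrc7 was 2.22 (adjusted p = 0.0532). Asb4 also lost its call without mCherry replicate 1 (adjusted p = 0.114) or replicate 2 (adjusted p = 0.081), and Lrrc7 in the type-adjusted fit (log2 12.37, a size that depends on the prior count; adjusted p = 0.271).

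The genes furthest below mCherry were often well expressed in the control. Cps1, the carbamoyl-phosphate synthetase that starts the urea cycle (chr1:67123026-67231259), fell from 3812 and 3813 in mCherry to 250.0 and 194 in C1+14 (log2 -4.11, SE 0.40, adjusted p = 1.04e-05). Kbtbd11, a Kelch and BTB protein, was at 43.1 and 34.1 against 1075 and 1021. Rnd1, an atypical small GTPase that loosens the actin cytoskeleton (chr15:98663421-98677461), was at 24.1 and 24.8 against 386 and 420.3 (log2 -3.99, SE 0.27, adjusted p = 4.29e-07). Hs3st2, a heparan sulfate sulfotransferase (chr7:121391859-121501770), had 0 reads in both C1+14 libraries against 91.1 and 96.1, at least 46.2-fold lower when each C1+14 library is set at 3 reads. The type-adjusted fit did not call it (log2 -9.82, adjusted p = 1), where the fitted size depends on the prior count because a group is at 0.

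Krt13, a keratin of stratified epithelia, was at 0.731 and 1.24 in C1+14 against 58.1 and 60.0 in mCherry. Ttll6, a tubulin polyglutamylase, was at 32.9 and 36.6 against 441 and 473, and Cdc42ep1, an effector of the GTPase CDC42, at 2.19 and 6.20 against 95.0 and 109. Prss42, a serine protease, was at 10.2 and 0.620 against 117 and 119, Crispld2, a secreted protein, at 2.19 and 8.68 against 68.0 and 81.5, and Nkain4, a sodium pump partner, at 2.19 and 30.4 against 116 and 130.4. With only the C1+14 and mCherry libraries fitted by limma, Prss42, Crispld2 and Nkain4 missed the threshold (adjusted p = 0.0784, 0.0515 and 0.158). Eppk1, the cytolinker epiplakin, at 35.1 and 28.5 against 418 and 486, missed the threshold when any of the 4 libraries was left out (adjusted p from 0.0901 without C1+14 replicate 1 to 0.134 without mCherry replicate 2). Among the 12 lower genes Chac1 was the exception in its behaviour with the library type, and it is described with the stress genes.

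**Figure D1:**
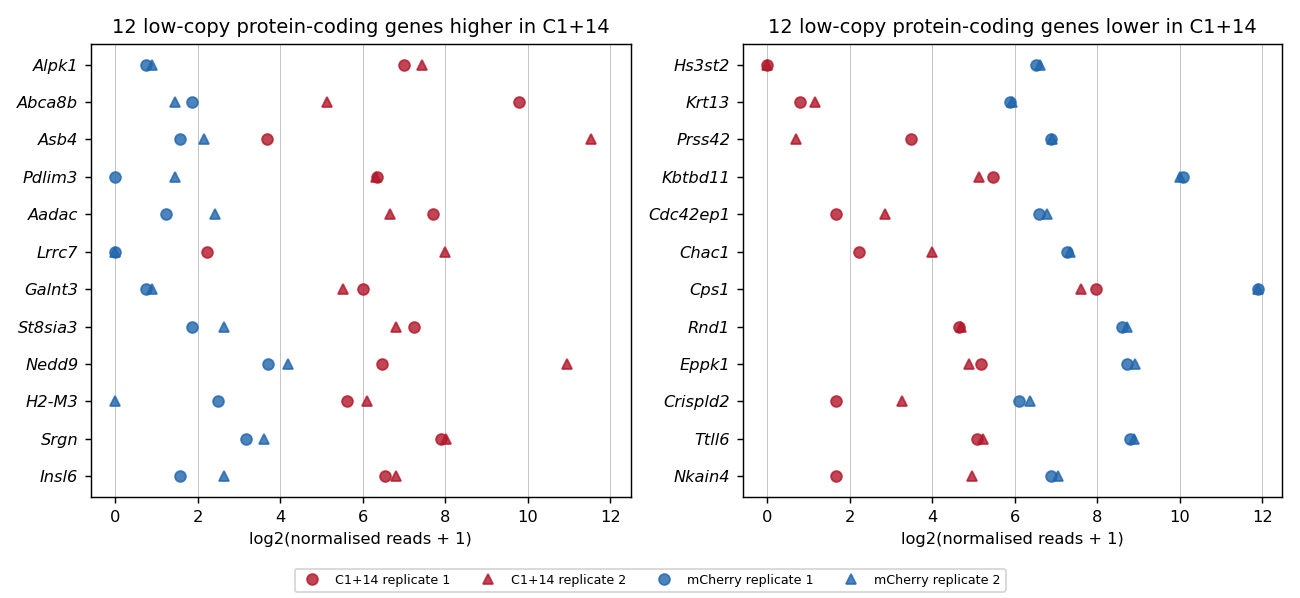
Normalised reads in each of the 4 libraries, on a log2(value + 1) axis, for the 12 low-copy protein-coding genes furthest above (left) and below (right) mCherry among those that do not move with the library type in the direction of the call; red is C1+14, blue is mCherry, circles are replicate 1 and triangles replicate 2. The naming rule allows no overlapping groups, and the C1+14 replicates stand far apart for Asb4, Abca8b, Lrrc7 and Nedd9.

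The same genes were read in the other 10 libraries of the table, which all carry a DUX construct; set against mCherry they share the same 2 control libraries with C1+14. Cps1 lay between 16.7 and 733 there (median 100.5), Kbtbd11 between 7.37 and 84.5, and Hs3st2 between 0 and 2.63, all below both mCherry libraries. Aadac lay between 48.8 and 1641, Galnt3 between 58.0 and 246 and Insl6 between 38.3 and 709, all above both mCherry libraries. Other genes differed between constructs. Both C3+14 libraries were type B, like those of mCherry, while those of FL and C1C3c were type A. Construct and type therefore cannot be told apart between C3+14 and FL or C1C3c. Alpk1 was at 1.47 and 1.19 in FL, full-length DUX, at 95.5 and 134 in C3+14, and at 234 and 672 in the chimera C1C3c. Rnd1 was at 427 and 387 in C3+14, near the 386 and 420.3 of mCherry, at 227 and 179.7 in FL, and at 51.3 and 31.8 in C1C3c.

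In C1+14 some genes of the 2-cell embryo went from no reads to few, and most were not called. Of 42 multi-copy 2-cell genes, 11 were called higher and 2 lower beside 10.5% and 8.78% of all multi-copy genes, and the median log2 difference was 0.35 (0.00 over all genes). In 22 of the 42 neither group had more than 3 reads in a library. Zscan4c, a telomere-linked factor of the 2-cell stage, was at 6.58 and 1.86 in C1+14 against 0 and 0, and Zscan4f at 8.04 and 1.86 against 0 and 0. Usp17le, a deubiquitinase, was at 13.2 and 16.1 against 0 and 0, at least 6.43-fold higher with each mCherry library set at 3 reads. Gm13119, a Pramel-like gene, was the most abundant at 54.1 and 37.2 against 2.64 and 1.72 (log2 3.87, SE 0.25, adjusted p = 2.55e-07). Several of these genes share most of their sequence, so reads may be split between copies. The 11 became 4 with a pseudocount of 8, 7 with edgeR, 6 when only the C1+14 and mCherry libraries were fitted, and 2 in the type-adjusted fit, and the calls of Zscan4c, Zscan4f and Usp17le were lost there (adjusted p = 0.0993, 0.32 and 1). Their fitted log2 differences in that fit, which depend on the prior count because mCherry is at 0, were 9.12, 7.64 and 4.36.

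The genes called lower in this list were Duxbl1, at 2.92 and 4.34 in C1+14 against 10.6 and 11.2, and Duxbl3, at 2.92 and 4.96 against 10.6 and 13.7; both are homeobox relatives of Dux, and edgeR called neither, while 4 genes of the list were lower without C1+14 replicate 1. Among 20 low-copy genes of the 2-cell program 3 were called higher and 2 lower, with a median of 0.18, near the 12.4% and 5.95% of all genes. Without C1+14 replicate 1, 5 were higher, and without any 1 of the other 3 libraries 1 was lower. Prnp, the prion protein gene, was at 639.6 and 828 against 108 and 135 (log2 2.59, SE 0.18, adjusted p = 4.35e-07), and Mfhas1, a leucine-rich repeat GTPase, at 97.2 and 117 against 20.5 and 24.9, a call the type-adjusted fit did not make (adjusted p = 0.064). Arg2, mitochondrial arginase, was at 2.92 and 7.44 against 1.32 and 1.72, missed the threshold without C1+14 replicate 2, without mCherry replicate 1 or without mCherry replicate 2 (adjusted p = 0.357, 0.192 and 0.114), and turned to -2.67 in the type-adjusted fit (adjusted p = 0.362). Snai1, a zinc finger repressor of epithelial genes, was lower, at 9.50 and 14.3 against 77.2 and 66.9, and missed the threshold without mCherry replicate 1 (adjusted p = 0.0507). Patl2, an oocyte translation regulator, was lower at 41.7 and 24.2 against 103 and 127, and missed it without C1+14 replicate 2 (adjusted p = 0.0582) or without mCherry replicate 2 (adjusted p = 0.0561). Zfp352, a zinc finger gene induced by DUX, had 0 reads in all 4 libraries.

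**Figure D2:**
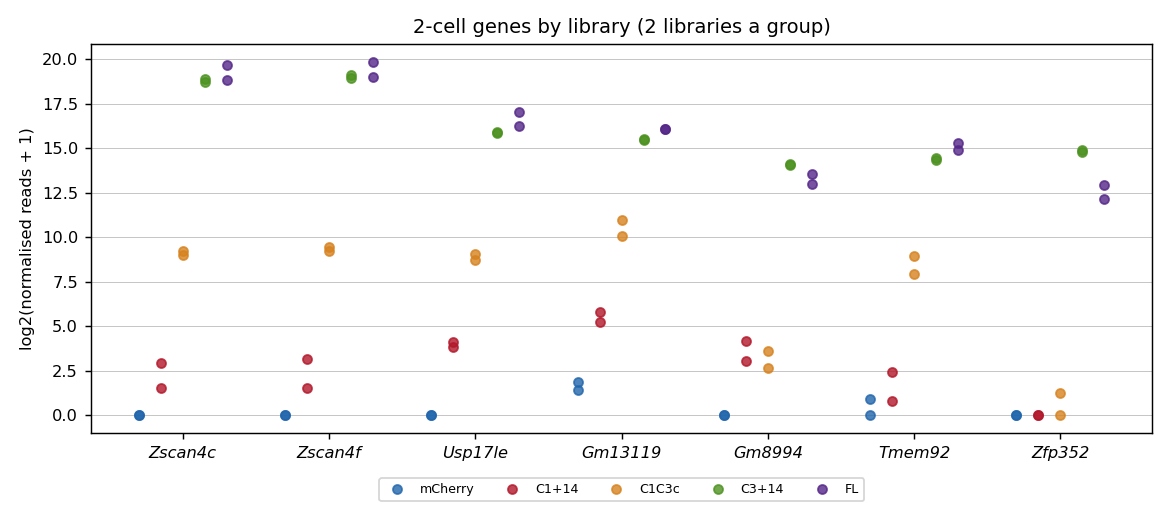
Normalised reads of 7 genes of the 2-cell program in both libraries of mCherry, C1+14, C1C3c, C3+14 and FL, on a log2(value + 1) axis; each point is 1 library. C1+14 lies above mCherry for Zscan4c, Zscan4f, Usp17le, Gm13119 and Gm8994, and far below C3+14 and FL for every gene shown.

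Set directly against FL and against C1C3c, without mCherry in the contrast, C1+14 was low in multi-copy 2-cell genes. All 42 multi-copy 2-cell genes were higher in FL than in C1+14, with a median log2 difference of 12.92 (limma, FL minus C1+14; 41.1% of all multi-copy genes called higher). Of the 20 low-copy ones 13 were higher and 2 lower, beside 21.5% and 18.4% of all genes. Zscan4c differed by 17.04, Usp17le by 12.68 and Tmem92, a membrane protein gene of the 2-cell stage, by 13.49. C1C3c, whose name shares C1, had 30 of the 42 higher than C1+14 with a median of 3.09, beside 11.8% of multi-copy genes called in either direction and 5.37% of all genes called higher. Over low-copy protein-coding genes FL differed from C1+14 at 4776 of 13787 genes, 1551 higher and 3225 lower (34.6% called). TMM scaling moved the split to 1104 and 4026 and quantile normalization to 1017 and 3963, and the median of all genes moved from 0.06 to -0.15 and -0.25. C1C3c differed from C1+14 at 1147 low-copy protein-coding genes, 660 higher and 487 lower (8.32% called). That count was 483 without C1+14 replicate 2 and 344 without C1C3c replicate 2. With only these 2 groups fitted by limma it was 0 (smallest adjusted p = 0.0975, 3233 genes at an unadjusted p under 0.05), while edgeR called 1310 and DESeq2 1324.

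By the rule for named genes, Tmem92, Ermn and Gpr22 were furthest above C1+14 in C1C3c, and Rasgef1a, Lpar5 and Hpdl furthest below. Tmem92 was at 485 and 241 in C1C3c against 0.731 and 4.34. Ermn, a cytoskeletal protein of oligodendrocytes, was at 70.9 and 201 against 0.731 and 0.620, and Gpr22, an orphan receptor, at 29.4 and 83.2 against 0 and 0. Lpar5, a receptor for lysophosphatidic acid, was at 22.6 and 4.73 in C1C3c against 111 and 126 in C1+14, beside 103 and 136 in mCherry. Hpdl, a dioxygenase-like protein, was at 13.6 and 4.06 against 86.3 and 76.3. Rasgef1a, an exchange factor for Ras-family GTPases, was at 29.4 and 27.7 against 126 and 745.

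C1+14 cells had less RNA of several naive pluripotency genes, while Pou5f1 was not called. These genes keep stem cells in the state of the early epiblast and are held on by the 2iLIF medium. Of 20 naive genes 6 were called lower and 0 higher (median -0.93), and of 14 core pluripotency genes 4 were lower and 0 higher (median -0.71), beside 5.95% of all genes lower. Prdm14, a repressor of differentiation and FGF signalling, was at 382 and 329 in C1+14 against 2172 and 2306 (log2 -2.66, SE 0.37, adjusted p = 1.93e-04). Nr5a2, an orphan nuclear receptor, was at 381 and 449.6 against 1698 and 1701 (log2 -2.04, SE 0.25, adjusted p = 6.86e-05). Zfp42, the marker Rex1, was at 4688 and 3751 against 11316 and 11174, and Tbx3, a T-box factor, at 1786 and 1597 against 4388 and 4247. In these 4 genes the groups lay apart by several times the gap between replicates.

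Klf2, a Kruppel-like factor, at 1572 and 1501 against 4015 and 4214, was called with all libraries (adjusted p = 0.016) but not when any 1 was left out (adjusted p from 0.0531 without C1+14 replicate 1 to 0.0813 without mCherry replicate 2). Fgf4, the autocrine signal for differentiation, at 1008 and 1343 against 3858 and 3911, likewise failed without each of the 4 libraries (adjusted p from 0.0801 without C1+14 replicate 2 to 0.158 without C1+14 replicate 1). In the core list Lin28a, the let-7 blocker, was at 425 and 578 against 2976 and 2784 (log2 -2.54, SE 0.46, adjusted p = 0.00121). Zfp296, a zinc finger protein, was at 238 and 234 against 1078 and 1109. Sall4 was at 1882 and 2324 against 4469 and 4643, under the 2-fold limit without C1+14 replicate 1 (log2 -0.97). Rex2, a multi-copy zinc finger gene, was at 5633 and 1824 against 11309 and 11431. It missed the threshold with only the C1+14 and mCherry libraries fitted by limma (adjusted p = 0.151).

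Pou5f1 was not called (log2 -0.25, SE 0.15, adjusted p = 0.235), nor was Nanog, at 11149 and 9195 against 16214 and 15907 (log2 -0.67, SE 0.24, adjusted p = 0.0535). Sox2, at 2744 and 2549 against 4962 and 4866, passed the adjusted p (0.0259) but not the 2-fold limit (log2 -0.89). The library types differed little over these lists, with medians of 0.26 and 0.05 for type A minus type B in the naive list and 0.17 and 0.03 in the core list. The type-adjusted fit called 3 of the naive and 3 of the core genes lower.

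The cells with less Prdm14 and Lin28a also had more RNA of some genes of the later epiblast. Of 20 genes of epiblast priming and gastrulation 6 were called higher and 0 lower beside 12.4% and 5.95% of all genes, with a median of 0.01, and 3 were higher without mCherry replicate 2. Lefty1, a secreted Nodal antagonist and Nodal target, was at 657 and 763 against 87.8 and 63.5 (log2 3.23, SE 0.56, adjusted p = 9.48e-04). Its neighbour Lefty2 was at 986 and 1014 against 214 and 214, and failed without each of the 4 libraries (adjusted p from 0.0611 without C1+14 replicate 1 to 0.0803 without mCherry replicate 1). Sox3, a neural and epiblast SOX factor, was at 165 and 163 against 36.3 and 34.3 (log2 2.19, SE 0.16, adjusted p = 7.95e-07). Lef1, a Wnt-responsive factor, was at 139 and 58.3 against 18.5 and 15.4, Sfrp2, a Wnt modulator, at 211 and 190.4 against 91.1 and 66.1, and Foxa2, an endoderm factor, at 29.2 and 31.0 against 5.28 and 3.43. Foxa2 lost its call without mCherry replicate 2 (adjusted p = 0.0626) and in the type-adjusted fit (adjusted p = 0.586). Nodal itself was at 1237 and 1232 against 1483 and 1462, and Fgf5 and Otx2, markers of the primed epiblast, were not called.

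**Figure D3:**
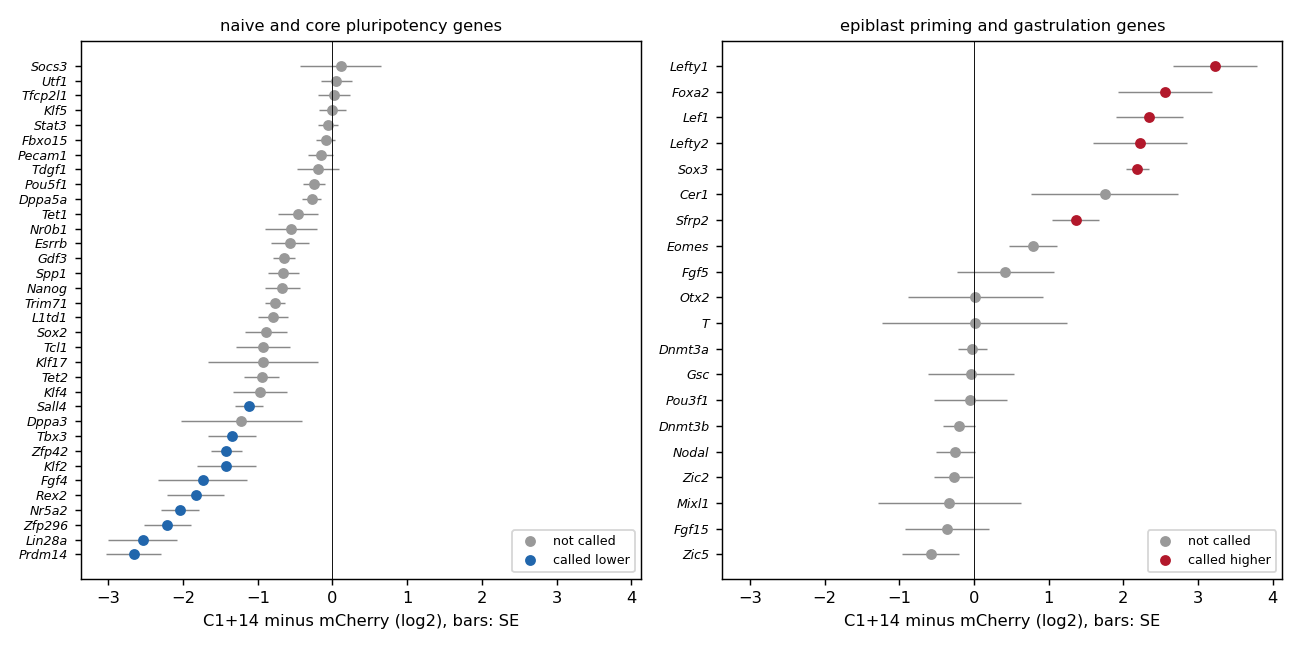
Log2 difference of C1+14 minus mCherry, with its standard error as a bar, for the 34 naive and core pluripotency genes (left) and the 20 epiblast priming and gastrulation genes (right); blue points are called lower, red higher and grey not called. Prdm14 at -2.66 and Lin28a at -2.54 are the lowest on the left, and Lefty1 at 3.23, counted as multi-copy, is the highest on the right.

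Levels of these genes in the other constructs, which share the mCherry libraries, did not all point the same way. Of the constructs named here, C3+14 was type B, and FL and C1C3c were type A. Lefty1 was at 860.1 and 799 in C1C3c, at 14.7 and 3.57 in FL and at 15.1 and 4.86 in C3+14. Lefty2 was at 503 and 818 in C1C3c, at 143 and 21.4 in FL and at 20.1 and 24.3 in C3+14. Nr5a2 was at 236 and 237 in FL and at 1392 and 1357 in C3+14. Prdm14 was below both mCherry libraries in all 10, between 47.4 and 419.

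Some of the genes that cells switch on under low oxygen were higher in C1+14. Hypoxia-inducible factors bind near such genes at a short core motif, ACGTG, and the genes code for glycolytic enzymes, collagen hydroxylases and mitophagy receptors. Of 27 genes of glycolysis and hypoxia 10 were called higher and 0 lower, with a median of 0.72, beside 12.4% and 5.95% of all genes. Bnip3, a mitophagy receptor counted as multi-copy, was at 2834 and 3057 against 151 and 107 (log2 4.52, SE 0.29, adjusted p = 2.34e-07). Egln3, an oxygen-sensing prolyl hydroxylase, was at 494 and 752 against 64.7 and 68.6 (log2 3.17, SE 0.38, adjusted p = 6.22e-05). Aldoc, the brain form of aldolase, was at 295 and 505 against 48.2 and 50.6, and the collagen prolyl hydroxylases P4ha1 and P4ha2 were at 1628 and 2168 against 504 and 492 and at 247 and 406 against 81.8 and 66.1. In each the lower C1+14 library exceeded the higher mCherry library at least 2-fold.

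The enzymes of glycolysis proper moved less. Pdk1, which holds pyruvate back from mitochondria, was called higher at 2023 and 1926 against 575 and 541, and Pfkp, a phosphofructokinase, at 9437 and 7282 against 3979 and 4187. Ldha, lactate dehydrogenase, was at 21478 and 26079 against 13785 and 13618 (log2 0.79), Pgk1 at 14959 and 16604 against 9794 and 9317 (log2 0.72) and Gapdh at 92375 and 106995 against 101379 and 107756 (log2 -0.07), none of them past 2-fold. Vegfa, the angiogenic growth factor, was at 325 and 494 against 724 and 734 (adjusted p = 0.245). The list moved with the library type as well, with a median of 0.66 for type A minus type B in deltC12345+14 and 0.60 in deltC12345delt14. Bnip3 had type differences of 1.15 and 0.60 and Egln3 of 0.78 and 0.99, smaller than their 4.52 and 3.17. Ldha had 0.70 and 0.61 and Pgk1 0.77 and 0.64, close to their differences here. The type-adjusted fit called 6 of the 27 higher, with a median of 0.23, and the part of the type in the other calls was not tested.

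The promoters of Bnip3 and P4ha2 are printed to show where the ACGTG core lies in 2 members of the list that stood apart. The window is the 250 bases before the start of each gene, from RefSeq on GRCm38.p6, 5′ to 3′ on the gene's strand (minus for Bnip3, chr7:138909507-138909756; plus for P4ha2, chr11:54100674-54100923), with ACGTG and its reverse complement CACGT, overlapping matches included, in capitals.
Bnip3: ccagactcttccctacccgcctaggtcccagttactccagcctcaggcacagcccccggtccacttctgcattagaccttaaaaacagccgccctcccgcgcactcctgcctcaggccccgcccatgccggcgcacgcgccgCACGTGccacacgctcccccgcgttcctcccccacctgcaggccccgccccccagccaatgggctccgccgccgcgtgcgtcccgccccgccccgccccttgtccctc
P4ha2: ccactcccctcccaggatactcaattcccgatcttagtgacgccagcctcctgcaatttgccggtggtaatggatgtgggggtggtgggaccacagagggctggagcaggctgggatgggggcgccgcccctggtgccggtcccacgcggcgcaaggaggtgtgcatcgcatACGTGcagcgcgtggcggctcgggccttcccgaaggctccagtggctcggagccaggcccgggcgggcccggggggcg
In windows of 300 bases, 250 before the start and 50 after it, searched on both strands, ACGTG occurred in 6447 of 32851 promoters of the table (19.6%) and in those of 3013 of 10779 tested low-copy protein-coding genes (28.0%). It occurred in 17 of 25 genes of the list with a promoter in the table and in 6 of the 9 called higher. Among the low-copy protein-coding genes higher in C1+14 it was in 262 of 1024 (25.6%). A DUX binding motif was searched in the same windows. That motif was in 11 of 32851 promoters (0.0335%) and in 1 of 10779 tested low-copy protein-coding genes. Among those called it was in 0 of 1024 higher and 0 of 587 lower. A motif this rare in the windows cannot tell the called genes from the rest. A match is a description of these windows and not a binding site.

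Some cholesterol synthesis genes were higher, with little difference between library types. Of 25 genes 5 were called higher and 0 lower beside 12.4% and 5.95% of all genes, with a median of 0.50, beside type medians of 0.02 and 0.20, and the type-adjusted fit also called 5. Without C1+14 replicate 2 the count was 3. Dhcr7, which makes cholesterol from its last precursor, was at 1944 and 2701 against 596 and 643 (log2 1.89, SE 0.14, adjusted p = 1.10e-06). Stard4, a sterol carrier, was at 2725 and 2707 against 1045 and 1031, and Mvk, mevalonate kinase, at 932 and 1092 against 444 and 386. Tm7sf2 and Msmo1, enzymes of the later steps, fell under the 2-fold limit without C1+14 replicate 2 (log2 0.96 and 0.77). Hmgcs1, an enzyme of the early pathway, was at 3562 and 4169 against 3705 and 3516 and was not called.

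Genes of the integrated stress response, the programme that the factor ATF4 drives when translation is curbed, divided. Of 20 genes 4 were lower and 2 higher beside 5.95% and 12.4% of all genes, with a median of -0.48, and 1 was higher without C1+14 replicate 2, mCherry replicate 1 or mCherry replicate 2. Atf4 was at 1269.7 and 1860.3 against 5781 and 5673 (log2 -1.90, SE 0.26, adjusted p = 1.96e-04). Its target Chac1, a glutathione-degrading enzyme, was at 3.65 and 14.9 against 153 and 162 (log2 -4.20, SE 0.72, adjusted p = 8.85e-04). Nupr1, a stress-induced chromatin protein, was at 50.4 and 100.5 against 435 and 474, and Herpud1, of the endoplasmic reticulum, at 95.8 and 129 against 322 and 303. Here the library type ran against the result, since type A exceeded type B by 3.27 and 1.87 for Chac1 and by 0.51 and 0.44 in the median of the list. The type-adjusted fit called 6 lower and 0 higher, and the 2 higher genes, Vldlr, a lipoprotein receptor, at 259 and 241 against 44.2 and 30.9, and Ddit4, an inhibitor of mTORC1, at 1837 and 2474 against 919.8 and 846, were not among its calls. Other ATF4 targets were not called, as Asns at 8569 and 12199.9 against 11455 and 11132 and Ddit3 at 185 and 239 against 203 and 229.9.

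**Figure D4:**
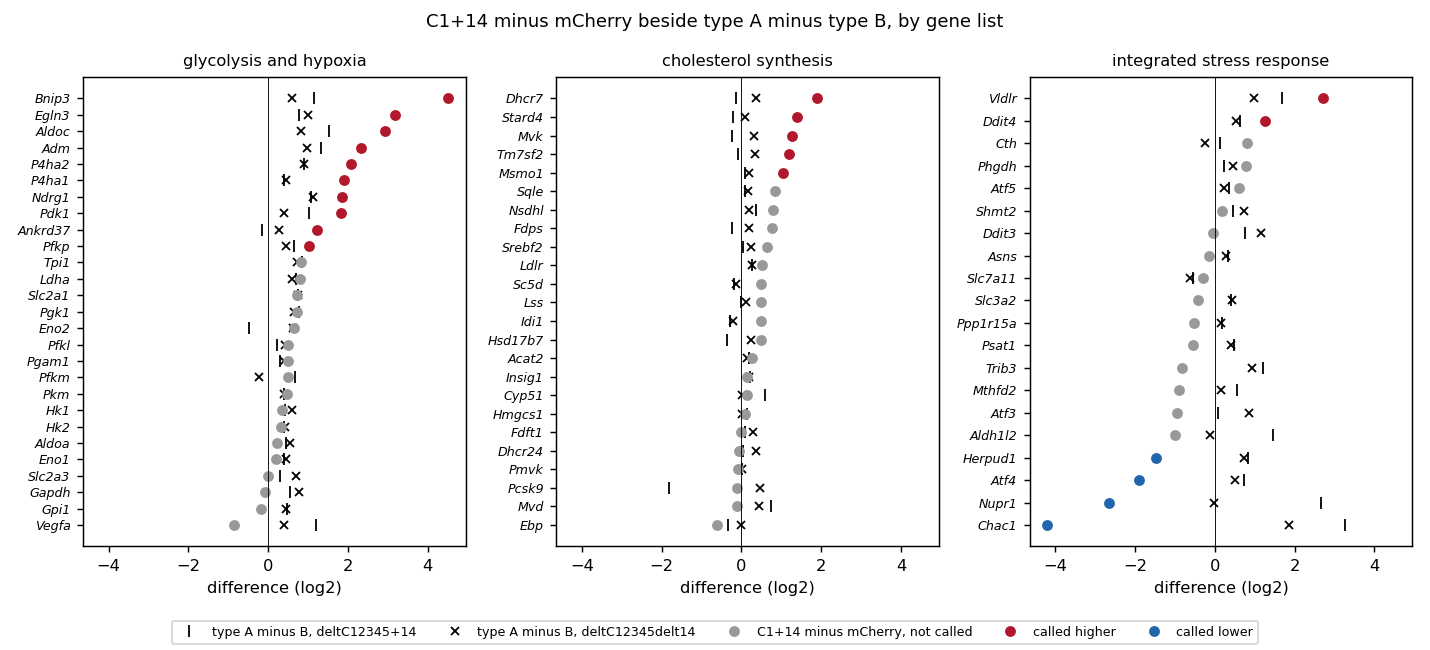
Log2 difference of C1+14 minus mCherry (circles; red called higher, blue called lower, grey not called) and of type A minus type B within deltC12345+14 (bars) and deltC12345delt14 (crosses), for genes of 3 lists. Bnip3 at 4.52 lies far from its type differences, Ldha and Pgk1 lie on theirs, and Chac1 at -4.20 lies opposite to its own.

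Imprinted genes, read from 1 parental allele, were more often lower than higher, with 10 lower and 3 higher of 26 (median -0.63) beside 5.95% and 12.4% of all genes. H19, a growth-restraining long RNA (chr7:142575529-142578143), was at 51.9 and 79.4 against 1036 and 933 (log2 -3.92, SE 0.52, adjusted p = 1.51e-04), with type differences of -1.61 and -0.40. Phlda2, a brake on placental growth, was at 10.2 and 6.82 against 45.5 and 58.3. Meg3 and Rian, long RNAs of the Dlk1 cluster, were at 2052 and 1508 against 3919 and 4363 and at 4990.2 and 3527 against 8778 and 8511. Ndn, of the Prader-Willi region, was higher, at 423 and 539 against 79.8 and 92.6 (log2 2.46, SE 0.24, adjusted p = 1.13e-05), and Grb10, an inhibitor of insulin signalling, at 3411 and 3200.3 against 1375 and 1380.2. The type-adjusted fit called 3 lower and 2 higher. The lower count was 7 without C1+14 replicate 1, 4 without C1+14 replicate 2, 5 without mCherry replicate 1, 4 without mCherry replicate 2 and 6 with only the C1+14 and mCherry libraries fitted.

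The lists of epithelial genes and of signalling targets were called both ways, and are read beside 12.4% of all genes higher and 5.95% lower. Epithelial genes had 5 higher and 5 lower of 22, with 3 higher without C1+14 replicate 1 or mCherry replicate 2. Pkp2 and Pkp3, desmosomal plakophilins, were at 678 and 781 against 257 and 265 and at 152 and 202 against 49.5 and 45.5, and Epcam, an epithelial adhesion molecule, at 507 and 484 against 201 and 225. Cldn4, a claudin of tight junctions, was lower at 167 and 337 against 1139 and 1156, and Krt42 at 105 and 131 against 532 and 645. Targets of Wnt signalling also divided, 4 higher and 3 lower of 15, with 2 higher without mCherry replicate 1 and 1 lower without C1+14 replicate 2 or mCherry replicate 2. Ccnd1, cyclin D1, was at 263 and 291 against 2377 and 2623 (log2 -3.17, SE 0.56, adjusted p = 0.00103), and Nkd1, a feedback inhibitor, at 93.6 and 84.3 against 19.8 and 15.4. Myc, an immediate early gene and growth regulator, was at 50.4 and 47.7 against 263 and 259 (log2 -2.39, SE 0.55, adjusted p = 0.00575), and in the type-adjusted fit it missed the threshold (adjusted p = 0.0594). Of 19 immediate early and ERK feedback genes 3 were higher and 4 lower, but 1 was higher without C1+14 replicate 1 or mCherry replicate 2, and 2 were lower without C1+14 replicate 2, mCherry replicate 1 or mCherry replicate 2. Of 16 TGF-beta and BMP targets, Lefty1 and Lefty2 among them, 4 were higher and 1 lower, with 2 higher without either C1+14 library and 1 higher without either mCherry library. Among 20 p53 targets 2 were higher and 1 lower, with 1 higher without any 1 of the 4 libraries. Pmaip1, which codes for the cell death protein NOXA, was higher at 702 and 752 against 172 and 156 (log2 2.14, SE 0.25, adjusted p = 6.00e-05). The type-adjusted fit called 2 epithelial genes higher and 5 lower, and 3 Wnt targets higher and 1 lower. Of the immediate early and ERK feedback genes it called 1 higher and 1 lower. It called 3 TGF-beta and BMP targets higher and 1 lower, and 3 p53 targets higher and 0 lower.

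Markers of other cell types were called both ways, beside 12.4% of all genes higher and 5.95% lower. In the trophectoderm list 4 of 14 were lower and 1 higher, with Gata2 at 34.4 and 28.5 against 313 and 323. In the neural list 4 of 11 were higher and 1 lower, with Pax6, an eye and forebrain factor, at 77.5 and 127 against 18.5 and 14.6 and Tubb3, neuronal tubulin, at a mean of 303 ± 14.3 against 2430.0 ± 192 (SD, n = 2). Sox17, a factor of primitive endoderm, was at 62.9 and 44.0 against 6.60 and 7.72, 1 of 2 higher genes of 16 in its list, which had 1 lower. Without C1+14 replicate 1 or mCherry replicate 2 the trophectoderm count was 2 lower and 0 higher, without C1+14 replicate 2 or either mCherry library 2 neural genes were higher, and without C1+14 replicate 1, 4 primitive endoderm genes were higher and 0 lower. The fibroblast list had 2 higher and 1 lower of 12, and the germline list 1 higher, the piRNA factor Asz1, and 4 lower of 20. The type-adjusted fit called 3 germline genes higher and 2 lower. It turned the median of that list from -0.33 to 0.38, beside type medians of -0.50 and -0.68. The same fit called 0 trophectoderm genes higher and 1 lower, and 0 fibroblast genes higher and 1 lower. Of the neural genes it called 3 higher and 1 lower, and of the primitive endoderm genes 4 higher and 1 lower. Without either mCherry library 1 fibroblast gene was higher and 0 lower, and without C1+14 replicate 1, 0 were lower. Summed over their tested members, these lists stood at 1846 and 2227 against 3574 and 3673 for trophectoderm, 1838 and 1704 against 3491 and 3708 for neural, 8007 and 10501 against 11819 and 12168 for primitive endoderm, and 27126 and 29037 against 19769 and 19730.1 for fibroblasts. The most abundant member weighs on each sum, as Tubb3 in the neural list and Sparc, a matrix protein at 2965 and 4176 against 7067 and 7102, in the primitive endoderm list. The list medians ran the other way, at 0.76 for neural and 0.66 for primitive endoderm, and were -0.49 for trophectoderm and 0.84 for fibroblasts. In mCherry 3 neural and 4 fibroblast genes had at most 3 reads in each library. With a lower group at that floor set to 3 reads, and genes at the floor in both groups left out, the neural median was 0.19. The fibroblast median was then 0.62, and those of primitive endoderm and trophectoderm did not change. A pseudocount of 8 gave 0.27 for neural. In bulk RNA fewer cells of a type and less RNA per cell cannot be told apart.

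Of 24 repressors of the 2-cell state, chromatin factors whose loss lets stem cells enter that state, 1 was called lower and 0 higher, near or under the 5.95% and 12.4% of all genes. That gene, Rif1, a telomere and replication factor, was at 3072 and 1506 against 7709 and 7790.0 (log2 -1.85, SE 0.25, adjusted p = 1.73e-04), and missed the threshold in the type-adjusted fit (adjusted p = 0.0553). With only the 2 groups fitted 0 of the 24 were called. Without C1+14 replicate 1, 3 of the 24 were lower. Genes of the mitochondrial genome were lower in 7 of 13 beside 5.95% of all genes, with a median of -1.03. mt-Cytb, cytochrome b, was at 50891 and 33238 against 106197 and 105947 (log2 -1.37, SE 0.18, adjusted p = 1.29e-04), with replicate 2 the lower. The 7 were 1 without C1+14 replicate 2, 11 without C1+14 replicate 1, 5 with TMM scaling, 4 with quantile normalization, and 0 both when only the 2 groups were fitted and in the type-adjusted fit. Type medians in this list were -0.34 and -0.32.

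Processed pseudogenes, kept apart, gave the furthest differences of all and moved with the library type. Gm6316, a copy of Gapdh on chromosome 12, was at 1347 and 1578 in C1+14 against 3.30 and 0 in mCherry (log2 9.46, SE 0.65, adjusted p = 4.35e-07), with type differences of 7.57 and 8.09. Gm5507, another Gapdh copy, was at 1126 and 1163 against 1.98 and 0, with 8.51 and 6.47, and Gm48348 at 686 and 339 against 0 and 0, with 8.26 and 7.85. In the type-adjusted fit these 3 had log2 differences of 1.70, 2.60 and 3.84 and no call (adjusted p = 0.244, 0.055 and 0.306). Gm10358, a multi-copy Gapdh-like gene on chromosome 8, was at 5986 and 6728 against 19.8 and 46.3, with 4.24 and 4.27.

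As an illustration, 60 bases of the Gapdh coding sequence are printed from GRCm38 beside the same stretch of Gm10358 and Gm6316, 5′ to 3′ on the minus strand (chr6:125162622-125162681, chr8:75405914-75405973 and chr12:69920868-69920927). The stretch is the first where both copies differ from Gapdh by few bases and match it at both ends. Its closeness was therefore fixed by the choice. Over all its 25-base words Gm10358 shared 85.6% with Gapdh, and Gm6316 shared 60.2%. Gm5507, not printed, shared 51.7%. The capital marks the 1 base that differs from Gapdh.
Gapdh: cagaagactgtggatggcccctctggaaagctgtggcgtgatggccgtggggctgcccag
Gm10358: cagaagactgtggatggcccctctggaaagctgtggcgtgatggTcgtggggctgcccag
Gm6316: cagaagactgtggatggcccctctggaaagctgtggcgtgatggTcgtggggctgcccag
A read from this stretch has at most 1 base to tell the copies from their parent. Of the 933 processed pseudogenes called higher, 905 had a parent gene by shared 25-base words. These traced to 393 parents, of which 376 were not called, 13 were lower and 4 higher, and the median over parents was -0.27 while that of the pseudogenes was 2.55. Ribosomal protein genes were the parent of 302 (33.4%) and Gapdh of 81. Over 83 Gapdh copies called higher, with Gm10358 and 1 other multi-copy gene among them, the median was 5.20 (1.40 to 9.46), and their summed values were 340170.0 and 383372 against 50109 and 55876, while Gapdh itself stood at 92375 and 106995 against 101379 and 107756.

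Few processed pseudogenes were lower, and the 3 named by the rule did not move with the type. Gm12180 had 0 reads in both C1+14 libraries against 54.1 and 52.3, at least 26.3-fold lower with each C1+14 library set at 3 reads. The type-adjusted fit did not call it (log2 -9.00, adjusted p = 1), again with a size that depends on the prior count. Gm5160, a copy of the cyclophilin gene Ppia, was at 13.9 and 29.8 against 79.2 and 219. Gm9847, a copy of the cytokine signalling suppressor Socs2, was at 29.2 and 8.06 against 70.6 and 78.1, beside -1.69 for Socs2 itself, and missed the threshold without C1+14 replicate 2 (adjusted p = 0.242), without mCherry replicate 1 (adjusted p = 0.104) or without mCherry replicate 2 (adjusted p = 0.124).

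Multi-copy genes and low-copy non-coding genes also held some calls that moved with the library type. Gm3839, another Gapdh-like gene, was at 2447 and 2771 against 11.9 and 22.3 with type differences of 6.16 and 6.18. Gm37917 was at 81.9 and 49.0 against 0 and 0 with 6.10 and 6.58, and Gm10800 was lower at 19.7 and 10.5 against 321 and 353 with -5.35 and -2.36. Gm49089 was lower at a mean of 253 ± 196 against 3743 ± 374 (SD, n = 2) with 1.67 and 0.16, and G430049J08Rik at a mean of 10.7 ± 11.7 against 129 ± 1.69 (SD, n = 2), a call lost without C1+14 replicate 2 (adjusted p = 0.0912). Among 2202 low-copy non-coding genes 87 were higher and 211 lower (13.5% called), and 12 of the 87 (13.8%) moved with the type in the direction of the call. The furthest above, Gm37214 at 173 and 207 against 0 and 0, Gm11525 at 84.1 and 62.6 against 0 and 0.858 and C030017G13Rik at 73.1 and 89.3 against 1.32 and 3.43, all moved with the type and had no call in the type-adjusted fit (adjusted p = 1, 0.281 and 0.647). The furthest below, Gm38414 at 1.46 and 2.48 against 38.3 and 65.2, 6330410L21Rik at 2.19 and 3.10 against 45.5 and 63.5 and H19, did not move with it and kept their calls in that fit (adjusted p = 0.00524, 0.0254 and 0.0183).

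**Figure D5:**
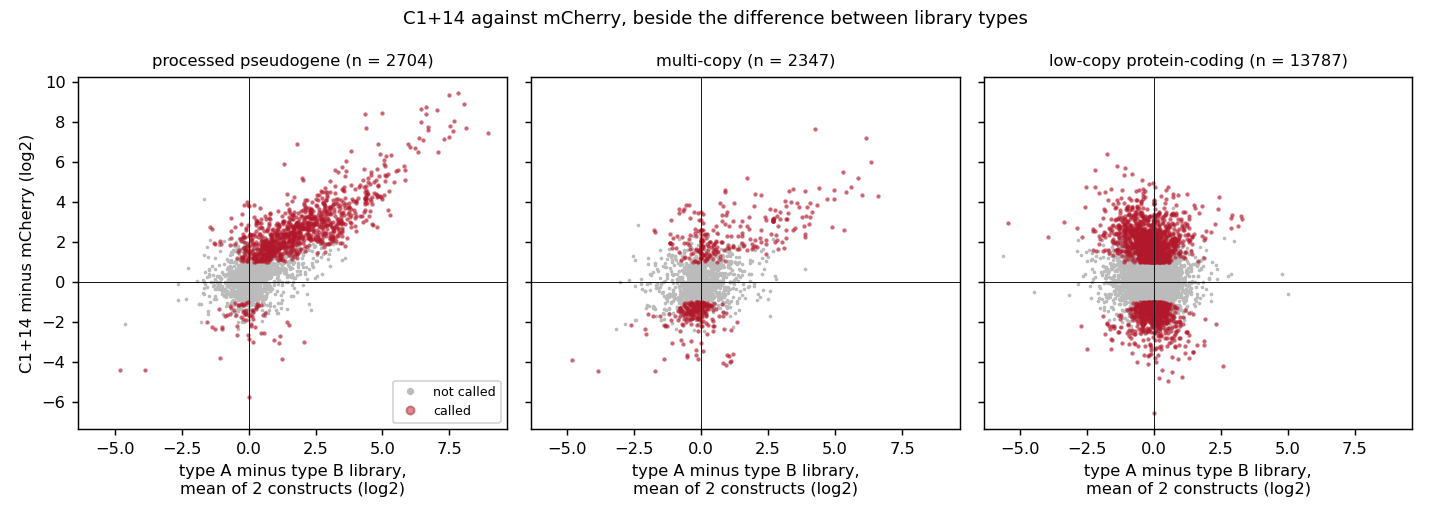
Log2 difference of C1+14 minus mCherry (vertical) against the mean log2 difference of type A minus type B in 2 other constructs (horizontal), 1 point per tested gene, for processed pseudogenes, multi-copy genes and low-copy protein-coding genes; red points are called. Among processed pseudogenes the called genes run along a diagonal up to Gm6316 at 9.46, and low-copy protein-coding genes are called on both sides of 0 with type differences mostly near 0.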

How the data were processed

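The RNA was made into stranded mRNA libraries per the labels' protocols. The deposited tables hold a signal, the read count per gene divided by a size factor, for 20 of the 22 samples; DESeq2, Trim Galore 0.5.0, FastQC and mm10 stand in the submitters' processing notes, and the aligner and counter are not given in the sources used here. Whole reads were recovered from the deposited signal, 100% of 1220714 values being whole multiples of 1 read within 1e-04 reads. C3delt14 was not analysed here, and 0 sample columns were left out. Values of some list members are not reported here, though the list counts include them.

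Genes (55487, of which 55227, 99.5%, had a GENCODE M21 symbol) were tested with limma 3.58.1 in R 4.3.3, lmFit and eBayes with a trend on log2(value + 1) over the 14 libraries of the table that holds C1+14 and mCherry, where the value reached 10 in at least 2 libraries. With 2 libraries against 2, a permutation test of 1 gene cannot go below p = 0.333. edgeR 4.0.16 on the recovered reads called 4038 genes, and DESeq2 1.42.0 called 3903. Only the limma fit of C1+14 against mCherry was tested on simulated data. The simulation gave every gene and group the same spread and held no library type, so it does not bear on those limits. Counting intervals (95%, exact) and floors (3 reads) cover counting error only.

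Genes named by rank are those called, whose higher group averages 50 or more and whose groups do not overlap. They are the 12 furthest in each direction among low-copy protein-coding genes that do not move with the library type in the direction of the call. The 3 furthest in each other class and in C1C3c against C1+14 were added. Up to 5 members of each list were named by size of difference alone, without these conditions. Zscan4c, Zfp352, Nanog, Pou5f1 and Sox2 were named whatever their values. Other list members were named after their values were seen. The comparison, lists and tests were chosen with earlier results of these data known. Alternatives were other tests, pseudocounts, filters, scalings, a replicate block, a type term, a stricter multi-copy limit and leaving out each library; the edgeR fit of both tables without the type, and the list counts under each alternative, were chosen after seeing the data.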

Additional observations from a re-analysis of the deposited data

How the results depend on the processing

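Across the other tests, pseudocounts, filters and scalings the calls between C1+14 and mCherry stayed within 1.5 times the reported counts over all genes. The same held among low-copy protein-coding genes, multi-copy genes and processed pseudogenes. Low-copy non-coding genes and other pseudogenes were not recounted. With the library type as a term in edgeR they came to 1860 over all genes, 129 among multi-copy genes and 167 among processed pseudogenes, against 3755, 390 and 902 in the same fit without it, an alternative chosen after seeing the data. Leaving out genes that move with the type gave 396 processed pseudogenes. Multi-copy genes called came to 280 with only the 2 groups fitted, and to 233 with the limit at 50% shared sequence, where fewer genes are in the class. C1C3c against C1+14 gave 0 low-copy protein-coding genes with only those 2 groups fitted by limma (3233 at an unadjusted p under 0.05). Leaving out each library in turn gave 2588 to 3548 calls over all genes, 1396 to 1937 low-copy protein-coding, 295 to 440 multi-copy and 724 to 851 processed pseudogenes, 344 to 1568 for C1C3c against C1+14 and 4127 to 5019 for FL against C1+14. Of 124 named genes that were called, 78 stayed called with the type term, where Arg2 reversed to -2.67, 86 with only the 2 groups fitted, and 97 to 110 without 1 library; the other alternatives kept 107 to 123 of 124, and a filter of 50 kept 112 of 112. With the replicate number as a block the calls were 3856 over all genes, 2063 low-copy protein-coding, 442 multi-copy, 981 processed pseudogenes, 1067 for C1C3c and 4747 for FL against C1+14. The labels' replicate numbers did not pair the libraries, since the correlation of replicate deviations was 0.0222 between C1+14 and mCherry and -0.101 to 0.0501 over the 21 pairs of groups. The limits of the comparison are 2 libraries a group, C1+14 replicates further apart than the controls, and a library type that cannot be told apart from the construct.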
